A study of Mus musculus with 6 samples.

Results

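The clustered replication-dependent histone genes make the bulk of the histone proteins that package newly copied DNA. They were taken as every protein-coding row of the count table whose GENCODE vM21 symbol starts with Hist1h, Hist2h, Hist3h or Hist4h, which gave 67 genes of 55450 rows. By class, 6 encode the linker histone H1, and 18 H2A, 18 H2B, 12 H3 and 13 H4, the core histones that form the nucleosome. By position, 54 lie in the Hist1 cluster on chromosome 13, 10 in the Hist2 cluster on chromosome 3, 2 in the Hist3 cluster on chromosome 11 and 1, Hist4h4, on chromosome 6. No expression value was used to choose them.

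RNA was sequenced from bone marrow of C57BL6/SJL mice (the strain as labelled) 12 weeks after transplantation. Stem cells of the LSK/SLAM phenotype, a surface profile of long-lived blood-forming cells, had been given to lethally irradiated recipients. In the endogenous group miR-125a, a microRNA, was at its own level, and in the overexpressed group it had been raised; the labels do not name the vector or its promoter. For each library 2000 lineage-negative, Sca-positive cells were sorted into lysis buffer and prepared with a NEBNext kit for single cells or low input, a kind of kit that primes on poly(A) tails. All groups share the transplantation, and the labels do not say which recipient gave which library or whether animals were pooled, so the spread between libraries may be technical in part. The labels name 3 libraries per group, and 2 per group were used: endogenous 1 and 3 and overexpressed 2 and 3. The remaining 2 were not analysed here.

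Replication-dependent histone genes have no introns as a rule, and their mRNAs rise in S phase, when DNA is copied. Their mRNAs are the known exception among animal mRNAs in ending with a conserved stem-loop in place of a poly(A) tail. The stem-loop binding protein SLBP holds this element, and a complex with U7 snRNA, ZNF473 (Zfp473 in mice), LSM10 and LSM11 cuts the transcript just after it. NPAT drives transcription of the clusters from the histone locus body. Replication-independent histones such as H3f3b and H2afz are made throughout the cell cycle from mRNAs with poly(A) tails. Most of their genes have introns, and 4 of the 11 used here, H1f0 among them, are annotated as a single exon block.

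The stem-loop is shown first because it sets these genes apart from almost all others in the annotation. It was searched for after the stop codon, on the gene's strand, as GGNNNTNTNNANNNCC with a stem of 6 base pairs and a loop of 4 bases. Of 54 members with an annotated 3′ UTR, 44 (81.5%) held a match, against 44 of 21070 other coding genes (0.209%). Only 6 forms occurred among the 44, and 1 member with each form is given below, 5′ to 3′ in the gene's sense from the GENCODE vM21 transcript, with the stem in capitals and the loop in lower case. Positions are on GRCm38, the assembly that mm10 names.
Hist1h1d, chr13:23555787-23555802, + strand: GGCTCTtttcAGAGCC
Hist1h2bk, chr13:22036300-22036315, + strand: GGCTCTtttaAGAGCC
Hist2h2ac, chr3:96220418-96220433, - strand: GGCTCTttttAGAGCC
Hist4h4, chr6:136803998-136804013, - strand: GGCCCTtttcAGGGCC
Hist1h4i, chr13:22040966-22040981, - strand: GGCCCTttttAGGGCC
Hist1h4j, chr13:21735437-21735452, + strand: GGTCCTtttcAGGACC

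The stem followed the class. The form shown for Hist1h1d was the commonest, in 26 members (3 of H1, 10 of H2A, 8 of H2B and 5 of H3) and in no H4 gene. The form of Hist1h2bk was in 6 members (1 of H1, 2 of H2B and 3 of H3), and that of Hist2h2ac in 1. The form of Hist4h4 was in 7 members, that of Hist1h4i in 2 and that of Hist1h4j in 2, all of them H4 genes. The match began 21 to 58 bases after the stop codon, with a median of 31. The annotation went on past it by 3 to 4884 bases, with a median of 112.5, so many gene models reach well past the site where histone mRNAs are known to be cut.

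The promoters also differed by class. Of the 67 members, 66 matched a RefSeq gene and 61 had a RefSeq promoter window (GRCm38.p6, from 250 bases before to 50 after the start site). CCAAT, the core of the CCAAT box, was on either strand in 52 of 61 windows (85.2%), against 37.4% of 32851 windows of that length. It was in 100% of the H1, H2A, H2B and H3 windows and in 25.0% of the 12 H4 windows. TATAAA, the element that the basal factor TBP binds, was in 57.4% of the members' windows and in 13.6% of all windows. TTTGCAT, the octamer element's core known from H2B promoters, was in 23.0% of the members' windows against 4.63% of all. By class it was in 41.2% of H2A, 37.5% of H2B and 8.33% of H4 windows, and in no H1 or H3 window. Windows of head-to-head H2A and H2B genes can overlap, as for Hist1h2ah and Hist1h2bk with 177 bases between their start sites. For all 3 motifs 1 match can then count for both genes, so the H2A and H2B shares are not independent. None of these 3 motifs contains another, and a match does not show that a factor binds there.

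Hist1h2ah and Hist1h2bk, an H2A and an H2B gene that lie head to head on chromosome 13 with 301 bases between their GENCODE ends, are the pair on which the results below turn most. The 177 bases between their RefSeq start sites, chr13:22035644-22035820 on the + strand, read toward Hist1h2bk, are printed with each CCAAT and TTTGCAT, on either strand, in capitals.
Hist1h2ah to Hist1h2bk: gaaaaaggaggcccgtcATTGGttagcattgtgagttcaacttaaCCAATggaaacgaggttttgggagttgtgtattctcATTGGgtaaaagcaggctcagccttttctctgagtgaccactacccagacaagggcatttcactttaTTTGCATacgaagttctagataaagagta
This shared stretch held 3 matches of CCAAT and 1 of TTTGCAT, and its TATAAA count was 0.

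The libraries were shallow. Total counts were 654126 and 712311 in endogenous 1 and 3 and 737431 and 715930 in overexpressed 2 and 3, so that 1 count was worth 1.15 to 1.63 CPM (counts scaled to the TMM-adjusted library size) and a count of 0 allows a level of up to 3.45 to 4.88 CPM, the worth of 3 counts, counting error only. Mir125a, the gene of the microRNA's precursor, had counts of 0, 0, 0 and 1, which at this depth checks nothing. Ly6a, which encodes Sca-1, had 1, 0, 1 and 1 counts, although the sort was on Sca. Kit had 4 and 25 endogenous and 9 and 5 overexpressed counts. Summed over 9 genes, granulocyte and monocyte markers stood at 7087 to 18970 CPM against 291.4 to 1141 CPM for 9 stem and progenitor markers, and both sums were highest in overexpressed 2. Ltf, of neutrophil granules, carried most of the first sum. Without it the other 8 genes stood at 499, 2786, 5152 and 704.4 CPM in endogenous 1, endogenous 3, overexpressed 2 and overexpressed 3. In overexpressed 2, Fgd5 (363 counts) and Flt3 (242) carried most of the second sum. Cd34 was also highest there, with 58 counts, while Slamf1, Mecom and Hlf were lowest there, with 3, 19 and 5. Mitochondrial genes took 4.14%, 4.22% and 6.29% of counts in endogenous 1, endogenous 3 and overexpressed 2, and 0.558% in overexpressed 3. Whether cell makeup or RNA quality had a part in the histone counts was not tested.

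The histone genes were barely seen in any library. Over all 67 genes and 66.3 kb of exon the counts summed to 38 in endogenous 1, 64 in endogenous 3, 68 in overexpressed 2 and 47 in overexpressed 3. Of the 67 genes, 25 were at 0 in every library, 17 had counts in 1 library, 14 in 2, 5 in 3 and 6 in all 4. The 6 seen in every library were Hist1h1d, Hist1h1e, Hist1h2ac, Hist1h2ah, Hist1h2ba and Hist1h2bk. The largest count of a gene in a library was 15. Only 3 genes reached 10 counts in a library and 7 reached 5. The most counted were Hist1h1d with 32 counts over the libraries, Hist1h2bk with 26, Hist1h2ah with 21, and Hist1h2aa and Hist1h2ba with 13 each. The first 4 of these held 92 of 217 counts (42.4%).

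Counts per kb of exon put this level beside that of genes not known to work in blood. Odorant and pheromone receptor genes whose exons form a single block, as in 62 of the 67 histone genes, served as that comparison (197 genes). Their summed density was 1.91 and 2.57 counts per kb in endogenous 1 and 3 and 1.5 and 2.08 in overexpressed 2 and 3. The histone genes stood at 0.573, 0.965, 1.03 and 0.709 counts per kb, below the receptor genes in each of the 4 libraries, at 30.0% to 68.2% of their density. The 62 histone genes in a single block stood at 35.7%, 40.5%, 81.1% and 37.9% of it in the same order of libraries. Other coding genes in a single exon block (1202 genes) stood at 5.77 to 9.02 counts per kb. The 11 replication-independent histone genes stood at 12.2, 27.2, 36.2 and 2.72 counts per kb, above the clustered genes in each library, with overexpressed 3 far below the rest.

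**Figure D1:**
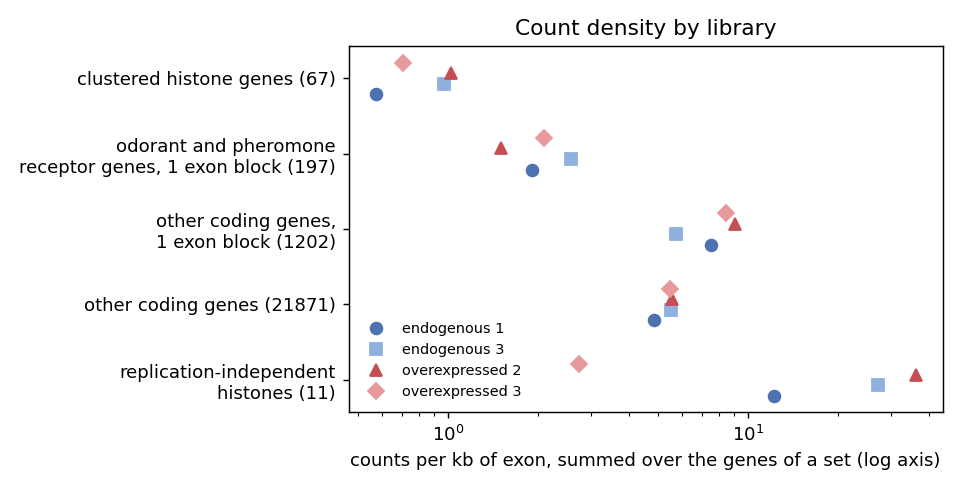
Counts per kb of exon, summed over the genes of each set, on a log axis, with 1 point per library. The 67 clustered histone genes lie lowest in all 4 libraries, left of the 197 receptor genes, while the replication-independent histones spread from 2.72 to 36.2.

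Gene by gene the picture was the same for most members and not for 4. The median histone gene had a mean density of 0.337 counts per kb and library, against 1.07 for the receptor genes. A receptor gene's 95th percentile was 6.46 counts per kb. Only 4 of 67 members (5.97%) lay above it: Hist1h2bk at 13.7, Hist1h2ah at 13.0, Hist1h2ba at 8.46 and Hist1h2aa at 8.33. That share is near the 5.08% of the receptor genes themselves and below the 12.6% of other coding genes. These 4 make up 2 head-to-head pairs of an H2A and an H2B gene, and the second pair, Hist1h2ba and Hist1h2aa, with 305 bases between them, encodes histones known from the testis. By the same measure 5 of 11 replication-independent histones (45.5%) lay above it.

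A longer annotation past the stem-loop went with a gene being seen, and whether density per kb followed it turned on Hist1h2bk. Of 22 genes with under 100 bases after the stem-loop, 8 had a count, and of 22 with 100 bases or more, 20 had. Per kb the shorter models stood at 0.629, 0.898, 1.44 and 0.629 in endogenous 1, endogenous 3, overexpressed 2 and overexpressed 3, and the longer ones at 0.517, 0.983, 0.776 and 0.569. The longer models were the denser ones in endogenous 3 alone. Hist1h2bk, with 30 bases after its loop, holds most of the shorter models' counts. Without it they stood at 0.375, 0.375, 0.0938 and 0.469, below the longer models in each of the 4 libraries. This was computed after its values were seen, and Hist1h1d was not left out of the longer models in turn. The 15 members with no 3′ UTR annotated beyond 2 bases, Hist1h2ah among them, were denser than both sets in each library. They stood at 1.45, 1.77, 3.38 and 1.77 in the same order of libraries. Most of their 52 counts were of Hist1h2ah (21), Hist1h2aa (13) and Hist1h2ba (13), and 8 of the 15 were at 0 throughout. The density therefore rests on those genes, and the set was not recomputed without them. Hist1h1d, the most counted member, has 4884 bases annotated after its loop. The counts do not show on which side of the loop their reads lay.

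Near-identical copies limit what a count of one histone gene means. Of each gene's 50-base stretches, a median of 53.0% occur in no other annotated transcript (range 0% to 100%), leaving out genes that overlap it at its own locus. The class medians were 98.9% for H1, 27.0% for H2A, 56.1% for H2B, 42.8% for H3 and 60.5% for H4. Reads from the remaining stretches could be dropped or split by the authors' counting, which is not given in the sources used here. The 37 genes with 50% or more of their own held 32, 53, 34 and 34 counts, and the 30 genes under 50% held 6, 11, 34 and 13. The excess of overexpressed 2 thus lay among genes that share most of their sequence, and most of it in Hist1h2ah (9.3% its own) and Hist1h2bk (25.8%). Exons of 21 members overlap a gene on the other strand and those of 7 a gene on the same strand, which the counting may not separate.

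**Figure D2:**
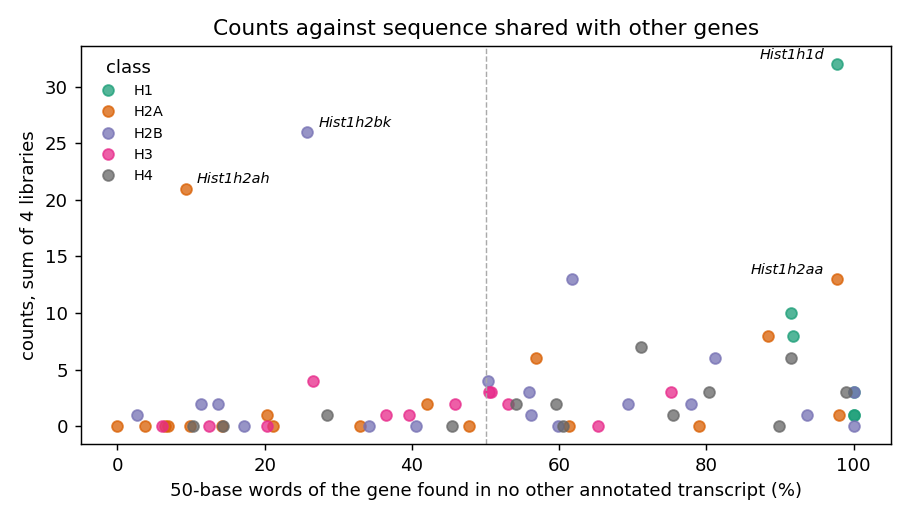
Counts of each of the 67 histone genes summed over the 4 libraries, against the percent of its 50-base stretches found in no other annotated transcript, coloured by class. The dashed line marks 50%, and Hist1h2bk and Hist1h2ah are the 2 well-counted genes left of it.

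The group comparison asks whether raising miR-125a moved these genes. Summed over all members the level was 58.2 and 73.7 CPM in the endogenous libraries and 110.6 and 66.6 CPM in the overexpressed ones. The groups overlapped, since overexpressed 3 lay between the endogenous libraries. The means were 65.9 ± 11.0 and 88.6 ± 31.1 CPM (SD, n = 2 each), a log2 ratio of 0.43. Without overexpressed 2 the log2 ratio was 0.015, and scaled to total counts with all 4 libraries it was 0.094. Genes with 50% or more of their own sequence gave a ratio of counts of 0.922 (exact 95% interval 0.66 to 1.28, counting error only). Genes under 50% gave 3.19 (1.80 to 5.92), with 34 of their 47 overexpressed counts in overexpressed 2. In bulk samples, fewer cells that make a transcript and less of it per cell cannot be told apart.

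**Figure D3:**
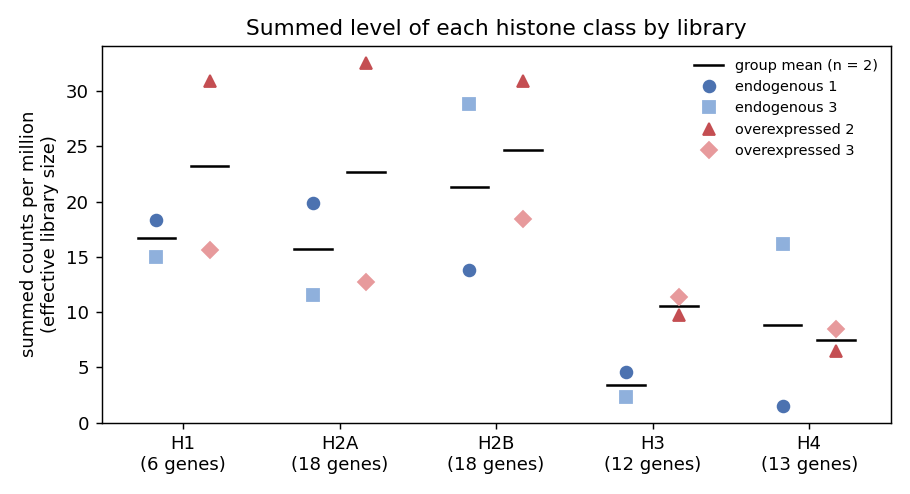
Summed level in CPM on the effective library size for each histone class, with 1 point per library and a line at each group mean (n = 2). Overexpressed 2 is the highest library for H1, H2A and H2B, and for H3 alone both overexpressed libraries lie above both endogenous ones.

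H1, the linker histones, held 12 and 13 counts in the endogenous libraries and 19 and 11 in the overexpressed ones (18.4, 15.0, 30.9 and 15.6 CPM). All 6 H1 genes had a count somewhere, the only class of which this was so. Hist1h1d had 6 and 6 endogenous and 11 and 9 overexpressed counts, so its groups did not overlap, as was so on the higher side for 7.95% of all rows with a count. The ratio of its counts was 1.92 (exact 95% interval 0.894 to 4.31), which includes no change. Hist1h1c had 0 and 4 endogenous and 6 and 0 overexpressed counts, with overlapping groups and a ratio of 1.73 (0.41 to 8.33). Hist1h1e, named here after its values were seen, was lower in both overexpressed libraries, with 1 and 1 counts against 4 and 2.

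H2A held 13 and 10 endogenous and 20 and 9 overexpressed counts (19.9, 11.5, 32.5 and 12.8 CPM), and 11 of its 18 genes were at 0 throughout. Hist1h2ah, on chromosome 13 from 22035164 to 22035568, had 1 and 1 endogenous and 15 and 4 overexpressed counts. Its groups did not overlap, and 15 of its 21 counts came from overexpressed 2. With 2 endogenous counts the ratio is 10.95 (exact 95% interval 2.64 to 96.9, counting error only). Hist1h2aa, the testis form, had 5 and 4 endogenous and 4 and 0 overexpressed counts, with overlapping groups and a ratio of 0.512 (0.115 to 1.84).

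H2B held 9 and 25 endogenous and 19 and 13 overexpressed counts (13.8, 28.8, 30.9 and 18.4 CPM), with overlapping groups. Hist1h2bk, the neighbour of Hist1h2ah, had 3 and 6 endogenous and 15 and 2 overexpressed counts. It was highest in overexpressed 2 and lowest in overexpressed 3, with a ratio of 2.18 (0.918 to 5.54). Hist1h2ba, the testis H2B, was even across libraries, with 3 and 4 endogenous and 2 and 4 overexpressed counts and a ratio of 0.988 (0.274 to 3.43).

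H3 held 3 and 2 endogenous and 6 and 8 overexpressed counts (4.59, 2.30, 9.76 and 11.3 CPM), the one class whose groups did not overlap. The ratio of its counts, 5 against 14, was 3.23 (exact 95% interval 1.10 to 11.5, counting error only). They were spread over 8 of the 12 genes, and the largest count of a gene in a library was 4. For H1, H2A, H2B and H4 the interval made in the same way included no change. The H3 interval was not adjusted for the number of classes. Hist1h3e had 4 counts, all in overexpressed 2 (adjusted p = 0.959 by edgeR without a count filter). Hist1h3a had 1 and 0 endogenous and 0 and 2 overexpressed counts.

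H4 varied widely within the endogenous group, with 1 and 14 endogenous and 4 and 6 overexpressed counts (1.53, 16.1, 6.51 and 8.50 CPM). Of the 14 counts in endogenous 3, 7 were of Hist1h4i, which was at 0 in the other libraries. Endogenous 1 was at 0 as well, so the groups overlapped, and its adjusted p without a count filter was 0.523 by edgeR. Hist4h4, which lies outside the clusters of other members, had 0 and 3 endogenous and 1 and 2 overexpressed counts, with a ratio of 1.15 (0.154 to 8.61).

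**Figure D4:**
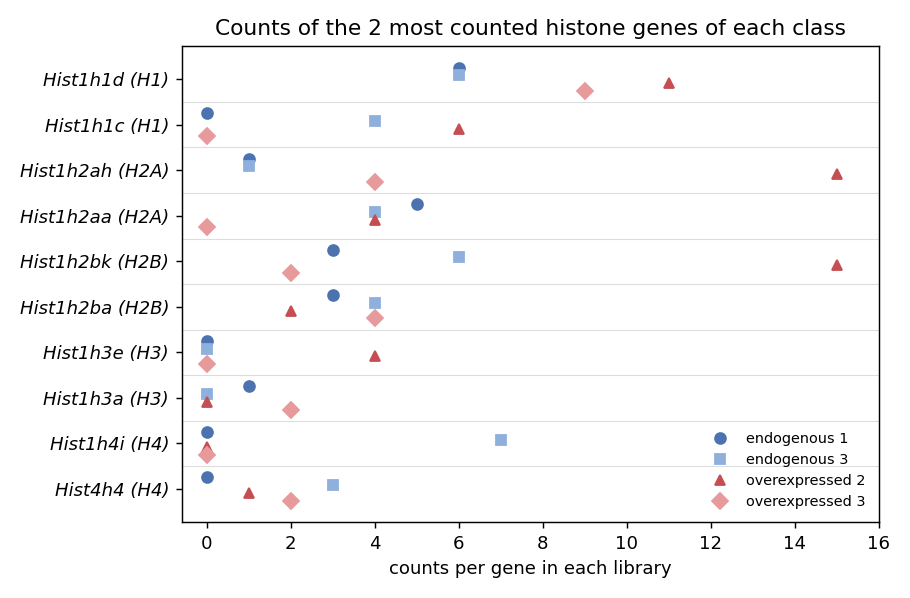
Counts per library of the 2 histone genes with the most counts in each class. Most points lie at or under 6; the 2 counts of 15, in Hist1h2ah and Hist1h2bk, are both from overexpressed 2, and 7 counts of Hist1h4i are from endogenous 3.

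No member entered the main test. The count filter kept 10808 genes and 0 of the 67, and the edgeR quasi-likelihood test called 0% of the genes kept at an adjusted p under 0.05 (566 had an unadjusted p under 0.05). The same test without a filter ran on 46089 genes and called 822 of them, or 1.78%. It tested the 42 members with a count and called 1, Hist1h2ah, on the higher side, where 0.709% of all genes were called. Its log2 fold was 3.28 ± 0.89 (SE), adjusted p = 0.0166 by edgeR. Leaving out endogenous 1 gave an adjusted p of 0.175, leaving out endogenous 3 gave 0.438, and leaving out overexpressed 2 gave 0.978 with a log2 fold of 1.95; without overexpressed 3 it was 0.00195 (edgeR in each case). The other members named had adjusted p-values by edgeR of 0.523 to 0.985. The median log2 fold of the 42 members was 0.03, and over all genes tested it was 0.03. The members' median moved with the libraries. It was -0.52 without endogenous 1 (39 members tested, all genes 0.07) and 2.30 without endogenous 3 (35 members, all genes 0.13). Without overexpressed 2 it was 0.07 (41 members, all genes -0.11), and without overexpressed 3 it was -2.25 (36 members, all genes -0.22). These medians are of genes with few counts. With all 4 libraries, a lone count gave Hist1h1b a log2 fold of 2.39 ± 3.47 (SE) and Hist1h2bm one of -2.24 ± 3.58. A median of that size can thus be the fitted value of lone counts, and is no measure of a shift in the histone genes.

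Separation of the groups among the histone genes was near its share over all rows on the higher side and below it on the lower side. Separation was judged here on counts as deposited, not scaled to library size. Low counts limit this comparison. A gene can be lower without overlap only with counts in both endogenous libraries, which 10 of the 42 members with a count had. Being higher needs counts in both overexpressed libraries, which 10 had as well. Of the 42 members with a count, 4 were higher in both overexpressed libraries than in both endogenous ones (Hist1h1d, Hist1h2ah, Hist1h3c and Hist2h4), where 7.95% of all rows with a count were. A further 2, Hist1h1e and Hist1h2ab, were lower, where 13.3% of rows were. Hist1h3c, Hist2h4 and Hist1h2ab are named here after their values were seen. Counts only in endogenous libraries were found for 11 members and only in overexpressed ones for 9. The 17 members with counts in 1 library are all among these, since such a gene can fall on 1 side only. The share over all rows is not given here, so these counts say nothing particular to the histone genes. The authors' deposited table calls 2.37% of its 17039 genes at an FDR under 0.05 and holds 2 members, neither called. In the authors' deposited table Hist1h2bk has a log2 fold of -1.09 (FDR 0.812) and Hist1h1d one of -0.87 (FDR 0.96), with the sign of endogenous over overexpressed.

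The genes that work with the histones were counted better, and none passed the main test. Of 11 replication-independent histones 5 were tested, all with values above 0 and a median log2 fold of 0.40, against -0.01 over all genes tested. In 4 of these 5 (H2afz, H2afv, H2afy and H3f3b) overexpressed 3 was nonetheless the lowest library, so the higher group mean rests on overexpressed 2. H3f3b, the H3.3 gene with most counts, had 262 and 684 endogenous and 796 and 1 overexpressed counts. Summed over all 11, the level was 584.7 and 978.9 CPM in the endogenous libraries and 1839 and 120.5 CPM in the overexpressed ones. H1f0, the linker histone known from resting and differentiated cells, had 1 and 8 endogenous and 24 and 38 overexpressed counts. Its groups did not overlap, with a log2 fold of 2.91 ± 0.69 (SE) and an adjusted p of 0.845 by edgeR; the edgeR test without a filter gave 0.00255 and the edgeR likelihood ratio test 0.0134, and both called it. H2afz, which replaces H2A at promoters, had 17 and 18 endogenous and 105 and 0 overexpressed counts. H2afy, the macroH2A gene, had 21 and 76 against 88 and 19 counts, with overlapping groups.

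Of 13 genes that transcribe and process histone mRNA, 9 were tested, with 6 values above 0 and 3 below and a median log2 fold of 0.18. Slbp, whose protein binds the stem-loops printed above, had 228 and 158 endogenous counts and 6 and 9 overexpressed counts. The groups lay far apart, with a log2 fold of -4.59 ± 0.80 (SE) and an adjusted p of 0.814 by edgeR's quasi-likelihood test. The edgeR test without a filter, edgeR's likelihood ratio test and DESeq2 each called Slbp. Zfp473, of the U7 complex, had 212 and 155 against 526 and 444 counts and a log2 fold of 1.51 ± 0.73 (SE; adjusted p = 0.845 by edgeR). Srrt, an RNA-processing factor, had 10 and 69 against 18 and 12 counts, with overlapping groups.

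Of 20 histone chaperones, which carry histones to and from DNA, 11 were tested, with 4 values above 0 and 7 below and a median log2 fold of -0.20. Rbbp7 had 5 and 92 against 8 and 12 counts, Ssrp1, of the FACT complex, 45 and 30 against 18 and 20, and Atrx 26 and 45 against 43 and 40. Of these 3, Ssrp1 alone had groups that did not overlap in counts. Scaled to library size, Atrx did not overlap either, at 39.8 and 51.8 CPM endogenous against 70.0 and 56.7 CPM overexpressed. Its log2 fold was 0.39 ± 0.50 (SE; adjusted p = 0.965 by edgeR). Of 25 DNA replication genes 12 were tested, with 2 values above 0 and 10 below and a median log2 fold of -0.44. Pcna, the sliding clamp of the replication fork, had 36 and 56 against 16 and 19 counts, lower in both overexpressed libraries (log2 fold -1.24 ± 0.46, SE; adjusted p = 0.845 by edgeR). Rrm1, of ribonucleotide reductase, had 1504 counts in endogenous 3 against 10, 4 and 9 elsewhere, and Mcm4, of the replicative helicase, 140 in overexpressed 3 against 11, 13 and 6. For both, 1 library sets the group mean.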

How the data were processed

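Counts are whole numbers as deposited by the authors, with no scaling, beside a table of edgeR values. Tools named, per the submitters' processing notes, are STAR, FastQC 0.11.8 and edgeR 3.24.3, with the mm10 build. Which counter, gene models and strand setting made the counts is not stated in the labels or headers. The authors' deposited table has log2 folds and, per the file headers, p-values and FDR; its score column, made by the authors, was not used. All 55450 identifiers matched GENCODE vM21, which gave symbols, exons, stop codons and transcripts.

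Although the labels name 3 libraries per group, fits had 2 per group. The test was edgeR 4.0.16's quasi-likelihood F test under R 4.3.3, with TMM factors, filterByExpr and a Benjamini-Hochberg threshold of 0.05. It was tested on simulated data, where the likelihood ratio test and DESeq2 called more unchanged genes than it did. They also found more of the changed genes at each size of change simulated. A gene that the quasi-likelihood test does not call may therefore still have changed. Because the filter kept no member, their folds come from the same fit without it and from ratios of summed counts with exact binomial 95% intervals, scaled by effective library size. Standard errors of folds were derived from the F statistic. DESeq2 1.42.0 and limma-voom 3.58.1 were alternatives. Total counts were 654126 to 737431.

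Named are every member the filter kept, or else the 2 of each class with most counts, and in each pathway list the 3 genes of lowest p. Members and lists were chosen with earlier results of these data known.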

Additional observations from a re-analysis of the deposited data

How the results depend on the processing

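With at most 15 counts of a gene in a library, depth limits what single histone genes can show, and 2 libraries per group limit better counted genes such as Slbp too. No paired analysis was possible because the groups share only replicate number 3 among the libraries used.

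The number of genes called, 0 in the main fit, was 822 without a count filter, 84 by edgeR's likelihood ratio test and 151 by DESeq2. It was 0 with relative log expression factors, in each fit without 1 library, and by limma-voom, where 263 had an unadjusted p under 0.05. The number of histone genes called, 0 in the main fit, was 1 without the filter, 1 without it and with relative log expression factors, and 1 without it and overexpressed 3. It was 0 without the filter and any other library; combinations with no filter were chosen after seeing the data.

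The summed histone level, log2 0.43, was 0.015 without overexpressed 2 and 0.747 without overexpressed 3, and these are the ends of its range over single libraries left out. It was 0.094 by total counts, 0.458 by relative log expression and 0.341 without Hist1h1d. Directions turned for Hist1h2bk (-1.03 without the filter and overexpressed 2) and for 5 other genes when 1 library was left out. H2afz ran from -7.13 without overexpressed 2 to 2.82 without overexpressed 3 (-1.82 by limma-voom, where the cause was not tested). H2afy ran from -1.18 without overexpressed 2 to 1.36 without endogenous 3, with -0.05 without endogenous 1. Srrt ran from -1.78 without endogenous 1 to 0.55 without endogenous 3, Rbbp7 from -2.81 to 0.93 likewise, and Mcm4 from -0.73 without overexpressed 3 to 3.61 without overexpressed 2. Without the filter Slbp, H1f0, Rrm1 and Mcm4 passed the threshold with log2 folds of -4.57, 2.97, -6.49 and 2.68.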
